A study of Mus musculus with 4 samples.

Results

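Cells store and release cargo through membrane vesicles, and 112 genes of that machinery were followed here over 4 arrays of mouse EML cells carrying mutant KIT. A gene was taken where its only symbol in the platform annotation began with Rab, Vps, Snx, Stx, Vamp, Snap, Syt, Arf or Arl and a digit, or with Stxbp, Sytl or Exoc, and 112 of the 6404 genes with a single symbol met that rule. The choice rested on names, so the set also holds Rab26os, a transcript named for lying opposite Rab26, and Vps72, a chromatin remodelling subunit. No gene of the Syt series was among the measured ones, and Sytl1 was the only synaptotagmin-like gene.

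EML is a multipotent blood progenitor line that needs stem cell factor (SCF), the ligand of KIT. It was transduced with a retroviral pLXSN vector bearing either KIT D816V, a kinase domain mutation, or KIT Del417-419insY, a mutation of the extracellular part of the receptor. All cells were selected with geneticin, then for growth without added factor, and sorted for KIT. The groups were D816V with SCF (250 ng/mL for 48 h), D816V without SCF, Del417-419insY with SCF (the same dose and time) and Del417-419insY without SCF, each with 1 array. Each mutant was 1 transduced population, the groups share the vector, the selection and whatever KIT the cells make themselves, and the labels of the untreated samples carry no time in culture. Because no group has a replicate, no value below carries an SD.

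Values are log2 levels set against a baseline that no source states and that is not the same for each probe set, so arrays can be compared for 1 gene but genes cannot be compared for level. The median over probe sets was -0.20 and -0.10 on the D816V arrays with and without SCF, against -0.05 and -0.02 on the Del417-419insY arrays, and the SD was 0.79 and 0.72 against 0.59 and 0.59. The mutants were compared with limma's additive fit of mutant and SCF over all 6404 genes. Its error combines how far a gene's SCF response differs between the lines (1 degree of freedom) with a value pooled over all genes. The pooled value has the larger weight (4.10 prior degrees of freedom). A gene is called where its Benjamini-Hochberg adjusted p was under 0.05. In bulk RNA, fewer cells of a type and less RNA per cell cannot be told apart.

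As background, Rab GTPases mark each membrane compartment and recruit motors and tethers to it, while Arf and Arl GTPases recruit coats. Tethers such as the exocyst and HOPS bring a vesicle to its target, and SNARE proteins on both membranes (syntaxins, SNAP and VAMP proteins), helped by Sec1/Munc18 (SM) proteins, fuse them. Sorting nexins, retromer and ESCRT sort cargo in endosomes. Mast cells, which KIT signalling sustains, use Rab27, Rab3 and SNARE proteins to release granules of histamine and proteases.

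The promoters of 3 Rab genes that were higher in D816V cells are shown because they stand for both ends of the motif search: Rab27a and Rab19 hold matches and Rab32 holds none. Each line gives the 250 bases before a RefSeq transcription start (GRCm38.p6), 5′ to 3′ on the strand of the gene. Capitals mark matches to the STAT motif TTCNNNGAA or the E-box CANGTG on either strand; no match to the GATA motif AGATAA lies in these 4 windows. The Rab27a windows are chr9:73044560-73044809 and chr9:73063898-73064147 (both plus strand), that of Rab19 is chr6:39381103-39381352 (plus) and that of Rab32 is chr10:10558208-10558457 (minus).
Rab27a, first start: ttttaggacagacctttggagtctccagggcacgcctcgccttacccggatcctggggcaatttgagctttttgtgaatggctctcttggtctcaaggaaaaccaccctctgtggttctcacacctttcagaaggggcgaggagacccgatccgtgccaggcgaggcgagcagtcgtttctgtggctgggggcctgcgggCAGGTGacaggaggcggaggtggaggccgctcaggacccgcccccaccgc
Rab27a, second start: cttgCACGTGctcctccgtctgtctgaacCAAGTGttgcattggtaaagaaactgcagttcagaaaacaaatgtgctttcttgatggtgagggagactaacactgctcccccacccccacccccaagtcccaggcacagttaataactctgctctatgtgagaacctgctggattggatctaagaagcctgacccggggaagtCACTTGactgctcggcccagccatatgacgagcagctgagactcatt
Rab19: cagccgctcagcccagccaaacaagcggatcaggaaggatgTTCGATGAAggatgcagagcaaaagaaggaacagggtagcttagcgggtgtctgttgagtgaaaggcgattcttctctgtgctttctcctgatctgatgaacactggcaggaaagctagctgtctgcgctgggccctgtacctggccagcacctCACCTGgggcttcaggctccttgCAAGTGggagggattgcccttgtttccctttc
Rab32: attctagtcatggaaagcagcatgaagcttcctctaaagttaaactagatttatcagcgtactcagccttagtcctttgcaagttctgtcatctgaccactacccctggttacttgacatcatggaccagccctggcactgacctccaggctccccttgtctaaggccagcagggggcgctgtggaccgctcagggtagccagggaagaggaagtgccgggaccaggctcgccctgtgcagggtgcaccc
The Rab27a matches are CAGGTG from -50 to -45 before the first start, and CACGTG from -246 to -241, CAAGTG from -221 to -216 and CACTTG from -47 to -42 before the second. Rab19 has TTCGATGAA from -209 to -201, CACCTG from -55 to -50 and CAAGTG from -32 to -27. None of these matches overlaps another. The table of promoters held 87 of the 112 members, with 110 windows. The E-box occurred in 38.2% of the member windows and in 39.5% of all 32851 windows, the STAT motif in 8.18% and 7.02%, and the GATA motif in 5.45% and 9.99%. In the windows of members higher in D816V cells the E-box was found in 5 of 13 and in those of members lower in D816V cells in 13 of 28; the STAT motif was found in 1 of 13 and 1 of 28, and the GATA motif in 0 of 13 and 1 of 28.

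D816V cells had more Rab27b, Rab19, Exoc3l, Rab32 and Rab44 transcript than Del417-419insY cells, by 2.84-fold to 17.9-fold on average over both conditions, and less Rab3il1 and Exoc3l2, by 4.55-fold and 3.58-fold. These 7 genes were the members that differed at least 2-fold in the same direction with and without SCF. By the fit, 17 members were higher in D816V cells, 25 were lower and 70 were not called. The 17 are 15.2% of the members, where 17.9% of all genes were called higher, and the 25 are 22.3%, where 24.7% of all genes were called lower. At 2-fold in both conditions the members had 5 higher (4.46%) and 2 lower (1.79%), where 5.15% and 3.79% of all genes were higher and lower. The median member difference, D816V minus Del417-419insY, was -0.13 with SCF and -0.06 without, beside -0.14 and -0.08 over all genes. The members thus lay near the whole table in their medians and in the share of calls by the fit. Their share at least 2-fold lower in both conditions was below it, but rests on 2 members, and that gap was not tested.

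The balance of the calls depended on how arrays were scaled, and other scalings added names to the higher members without dropping any. After cyclic loess, quantile normalization and median centring the members had 30 higher and 20 lower, 26 and 20, and 28 and 21, so that the higher share of the calls was 60.0%, 56.5% and 57.1% in place of 40.5%; over all genes it was 56.3%, 52.4% and 56.9% in place of 42.1%. The median difference of all genes with SCF was 0.04, -0.0016 and 0.01 under these scalings, in place of -0.14. All 17 higher members were also called higher under each of the 3, as were 18 of the 25 lower ones called lower, and no member was called in opposite directions. A further 16 members were called higher under at least 1 of them: Vps53, Stx7, Vamp5, Arf2, Rab5a, Snap29, Rab4b and Snx17 under all 3, and Snx10, Rab11fip5, Rab37, Vps26c, Stx8, Rab21, Stxbp5 and Snx24 under fewer. Rab2b was called lower after loess alone. The 7 that lost the lower call under at least 1 scaling were Arf3, Vps51, Rab11a, Vps9d1, Snx30, Vamp7 and Rab31. With no SCF term in the fit, these 7 lost the call, as did Rab11fip2 and Rab3gap2 and, among the higher members, Rab12, Snx20, Rab9, Vps4a, Stx11, Snx16 and Snx13. Calls over all genes fell as well, from 1147 to 690 higher and from 1579 to 913 lower. Most calls were small: 10 of the 17 higher and 22 of the 25 lower members differed by less than 2-fold in both conditions. Over all genes, 1147 were called higher and 1579 lower, while 330 and 243 were at least 2-fold higher and lower in both conditions. Calls short of 2-fold in 1 condition or both were thus common over the whole table and are no trait of the members.

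**Figure D1:**
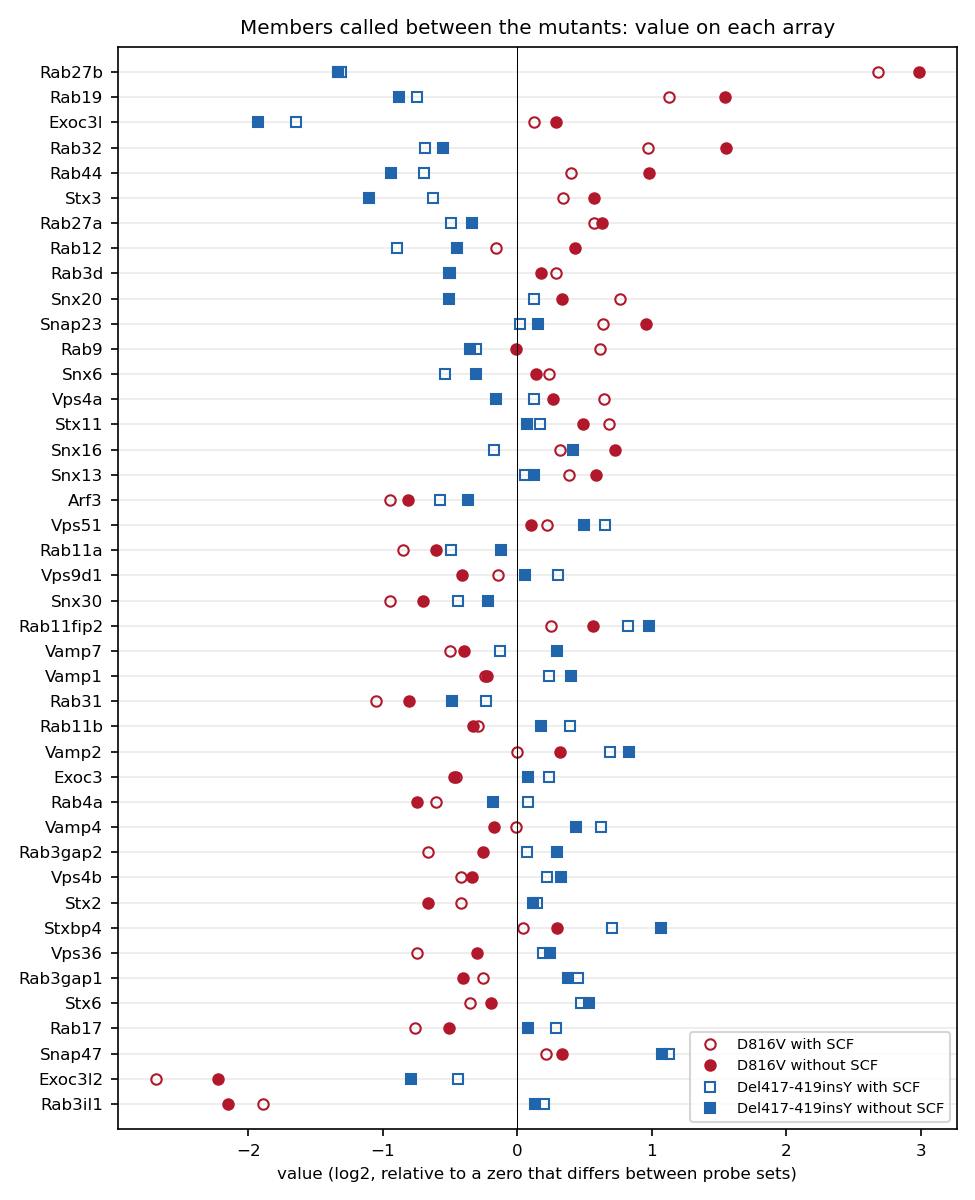
Value of each called member on each of the 4 arrays (x axis, log2, each probe set against its own unstated baseline), with D816V as circles and Del417-419insY as squares, open with SCF and filled without, 1 array each. Members run from the most raised in D816V cells (Rab27b, 2.68 and 2.98 against -1.31 and -1.34) to the most lowered (Rab3il1). Within a row both circles lie on one side of both squares except for Snx16. The call itself favours such rows, so their separation is no further evidence.

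Among the 31 Rab GTPases, 8 were higher in D816V cells, 5 lower and 18 not called, beside 17.9% of all genes higher and 24.7% lower. The Rab counts were 11 and 4 with loess, 10 and 3 with quantile scaling, and 11 and 4 with centring. Over all genes, higher calls also outnumbered lower ones under these scalings (1628 and 1263, 1526 and 1387, and 1720 and 1302).

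Rab27b, which docks secretory granules at the plasma membrane in mast cells and platelets, read 2.68 with and 2.98 without SCF in D816V cells, against -1.31 with and -1.34 without SCF in Del417-419insY cells. The D816V arrays stood far above both others, and the mean difference was 4.16 (SE 0.135, limma adjusted p = 0.000112). It ranked 30 from the top among the 6404 genes, and its 3 probe sets gave 3.96 to 4.49. Its paralog Rab27a, which serves the same step for melanosomes and cytotoxic granules, read 0.57 and 0.63 in D816V cells, against -0.49 and -0.34 in Del417-419insY cells (with and without SCF in each). Both D816V values were above both others, and the mean difference of 1.02 (SE 0.116, limma adjusted p = 0.00344) was 2.02-fold, so both Rab27 genes were higher, by unlike amounts.

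Rab32, which with Rab38 routes enzymes to lysosome-related organelles, read 0.97 with and 1.55 without SCF in D816V cells, against -0.69 and -0.55 in Del417-419insY cells. The groups were well apart, with a mean difference of 1.88 (SE 0.150, limma adjusted p = 0.00117). Rab38 itself read 0.49 and 0.61 in D816V cells, against 0.33 and 0.38 in Del417-419insY cells, a difference of 0.19 that was not called. The paralogs thus had differences of unlike size.

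Rab19, a less studied Rab, had 1.13 with and 1.54 without SCF in D816V cells, against -0.75 and -0.88 in Del417-419insY cells. Its mean difference was 2.15 (SE 0.167, limma adjusted p = 0.00107), the second largest of the members. Rab44, a large atypical Rab with EF-hand motifs, had 0.40 and 0.98 in D816V cells, against -0.69 and -0.94 in Del417-419insY cells. The difference for Rab44 was 1.09 with and 1.92 without SCF, so it was smaller in the treated cells though the groups did not overlap (limma adjusted p = 0.00674).

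Rab3d, a Rab of mast cell and exocrine granules, was 0.29 and 0.18 in D816V cells with and without SCF, against -0.51 and -0.50 in Del417-419insY cells, and all 3 of its probe sets gave the same sign. The mean difference was 0.74 (limma adjusted p = 0.00884). Rab12, which acts on traffic of recycling endosomes to lysosomes, differed by 0.80 (limma adjusted p = 0.00730), and Rab9, a Rab of late endosome to Golgi transport, by 0.63 (limma adjusted p = 0.0373). Rab37, another Rab of mast cell granules, differed by 0.27 and was not called (limma adjusted p = 0.137), though it was after centring.

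The lower Rabs were Rab17 (-0.82), known from polarised epithelia, Rab4a (-0.62), Rab11b (-0.59) and Rab11a (-0.42), which drive recycling from endosomes, and Rab31 (-0.57), a Rab of Golgi to endosome transport. Rab17 read -0.76 and -0.51 in D816V cells with and without SCF, against 0.29 and 0.08 in Del417-419insY cells, and passed 2-fold with SCF only. Both Rab11 genes were lower, although Rab11a lost the call under other scalings. Rab31 lost it after loess and quantile scaling, and its probe sets gave -0.215 and -0.925. Rab4b, the paralog of Rab4a, had a difference of 0.27 that was not called here and was called higher under each of the 3 scalings. Rab5a (0.33) and Rab5b (-0.12), of early endosomes, and Rab7 (0.06), of late endosomes, were not called either, and of these Rab5a was called higher under each of the 3 scalings.

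Of the 7 Rab partners and other genes with Rab names, 4 were lower and none was called higher (all genes: 24.7% lower and 17.9% higher). The counts were 0 higher and 4 lower with loess or quantile scaling, and 1 and 4 with centring. Rab3il1, an exchange factor that loads Rab3 and Rab8 with GTP, read -1.89 with and -2.15 without SCF in D816V cells, against 0.20 and 0.13 in Del417-419insY cells. The lines were far apart, with a mean difference of -2.19 (SE 0.122, limma adjusted p = 0.000430), and Rab3il1 ranked 50 from the bottom of all genes. Its 2 probe sets gave -2.79 and -1.59. Rab3gap1 and Rab3gap2, the catalytic and the other subunit of the complex that turns Rab3 off, were lower by -0.74 and -0.64, and Rab11fip2, an effector of Rab11, by -0.49. Rab3d was therefore higher in D816V cells while a Rab3 exchange factor and both subunits of the Rab3 GTPase-activating complex were lower.

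**Figure D2:**
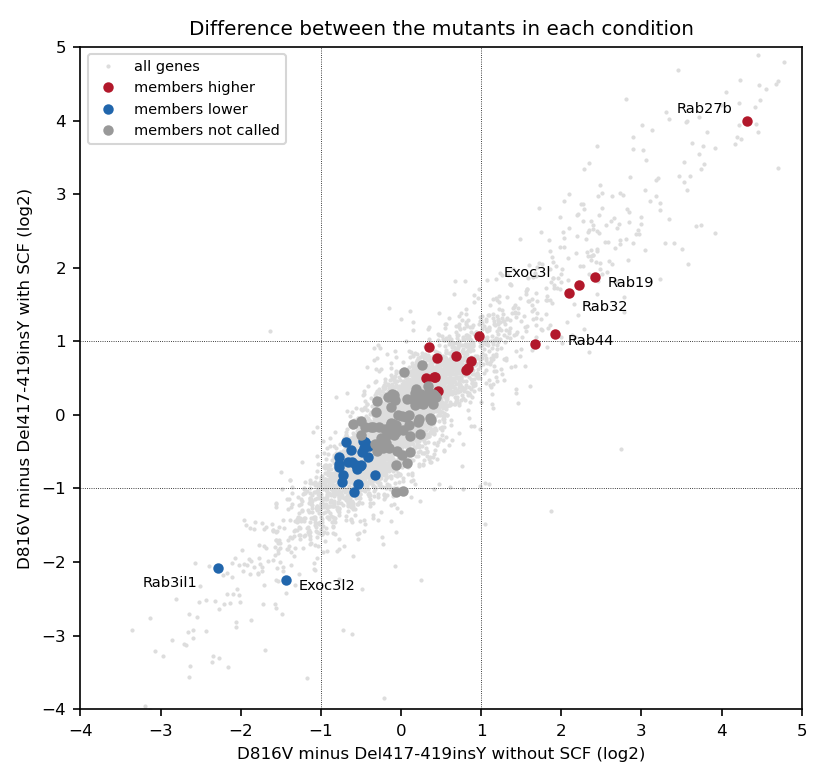
D816V minus Del417-419insY without SCF (x axis, log2) against the same difference with SCF (y axis, log2) for each gene, with members in red (called higher), blue (called lower) or grey (not called), all genes as small grey dots, and dotted lines at 2-fold. The 5 members beyond both lines at the upper right are labelled, as are Rab3il1 and Exoc3l2, and 26 genes lie outside the axes.

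The SNAREs had no common direction. Of 19, 3 were higher in D816V cells (Stx3, Snap23 and Stx11), 7 were lower and 9 were not called (all genes: 17.9% higher and 24.7% lower). The balance changed with scaling, which gave 7 higher and 6 lower with loess, 6 each with quantile scaling, and 6 higher and 7 lower with centring.

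Stx3, a syntaxin of the plasma membrane and of granules, read 0.34 with and 0.57 without SCF in D816V cells, against -0.63 and -1.11 in Del417-419insY cells. Its 4 probe sets gave 1.02 to 1.78, with a mean difference of 1.32 (SE 0.194, limma adjusted p = 0.00728). Snap23, the SNAP protein of mast cell degranulation, read 0.64 and 0.96 in D816V cells, against 0.02 and 0.15 in Del417-419insY cells. Neither gene overlapped between the lines, and the difference for Snap23 was 0.71 (SE 0.122, limma adjusted p = 0.0108). Stx11, whose loss in humans impairs cytotoxic granule release, read 0.68 and 0.48 in D816V cells, against 0.17 and 0.07 in Del417-419insY cells, a difference of 0.46 (limma adjusted p = 0.0306).

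Lower in D816V cells were Snap47 (-0.83), a SNAP protein found on internal membranes, Stx6 (-0.78), a syntaxin of the trans-Golgi network, and Stx2 (-0.68), of the plasma membrane. Stx6 read -0.35 and -0.19 in D816V cells with and without SCF, against 0.47 and 0.53 in Del417-419insY cells, and all 4 of its probe sets were lower. The VAMP proteins Vamp4 (-0.63), Vamp2 (-0.60), Vamp1 (-0.55) and Vamp7 (-0.53), the vesicle partners of syntaxins, were lower too, with Vamp7 losing the call after loess and quantile normalization. Vamp8, the main vesicle SNARE of mast cell and platelet secretion, read -0.25 and -0.11 in D816V cells, against -0.19 and -0.33 in Del417-419insY cells. Its values interleave between the lines, and the difference of 0.09 was not called (limma adjusted p = 0.616). Vamp3 (-0.27) was not called either.

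Of the 4 SM-type and syntaxin-binding genes, Stxbp4, which binds syntaxin 4, was lower by -0.72 (limma adjusted p = 0.00924). Stxbp2, the SM protein of mast cell, platelet and cytotoxic granule fusion, read -0.12 and -0.32 in D816V cells with and without SCF, against 0.19 and -0.07 in Del417-419insY cells, and was not called (limma adjusted p = 0.101). Stxbp5 and Vps33a were not called, so the family had 1 lower and none higher (all genes: 24.7% lower and 17.9% higher). Sytl1, an effector that links Rab27 to membranes, read 0.38 and 0.35 in D816V cells, against 0.52 and 0.26 in Del417-419insY cells, and was not called. Its values overlap between the lines, unlike those of both Rab27 genes.

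A list of 30 genes with known parts in regulated granule release in mast cells and platelets, drawn from the Rab, SNARE, SM and synaptotagmin-like genes, had 16 measured members. Of these 7 were higher (Rab27b, Rab32, Stx3, Rab27a, Rab3d, Snap23 and Stx11), 2 were lower (Vamp2 and Vamp7) and 7 were not called (Rab37, Rab38, Vamp3, Vamp8, Stxbp2, Sytl1 and Vps33a). Over all genes, 17.9% were called higher and 24.7% lower. The list was put together with results of these arrays known, so its count is no independent evidence of direction.

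**Figure D3:**
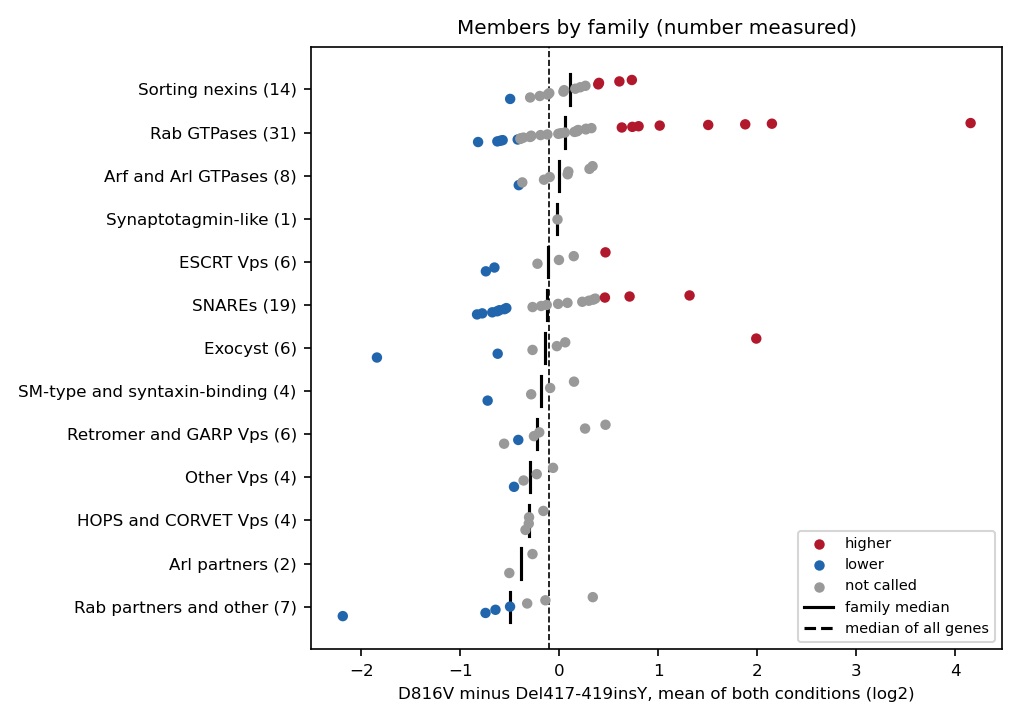
Mean difference, D816V minus Del417-419insY over both conditions (x axis, log2), of each member, by family (number measured in brackets), with red and blue for members called higher and lower, a bar at the family median and a dashed line at the median of all genes. Rab GTPases hold the widest range, and the members of each family scatter on both sides of the dashed line except in the smallest ones and in HOPS and CORVET.

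The exocyst tethers secretory vesicles to the plasma membrane. Of the 6 measured genes with Exoc names, which include relatives of a subunit, 1 was higher, 2 lower and 3 not called (all genes: 17.9% higher and 24.7% lower). Exoc3l, a relative of the subunit Exoc3, read 0.12 with and 0.29 without SCF in D816V cells, against -1.65 and -1.93 in Del417-419insY cells (mean difference 1.99, SE 0.152, limma adjusted p = 0.000995). Exoc3l2, another relative, read -2.69 and -2.23 in D816V cells, against -0.44 and -0.79 in Del417-419insY cells (mean difference -1.84, SE 0.212, limma adjusted p = 0.00357). These relatives of Exoc3 were thus apart in opposite directions, each without overlap between the lines. Exoc3 itself was lower by -0.62 (limma adjusted p = 0.0149), while the core subunits Exoc4 (0.06), Exoc5 (-0.27) and Exoc6 (-0.02) were not called.

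In the endosomal tethers of HOPS and CORVET none of the 4 genes was called (Vps11, Vps18, Vps39 and Vps41, -0.34 to -0.16). This and the next family counts stand beside 17.9% of all genes called higher and 24.7% lower. Counts over so few genes show little. Of the 8 Arf and Arl GTPases, Arf3, a Golgi Arf, was lower by -0.41 and 7 were not called, among them Arf1, Arf4 and Arf6; after each of the 3 scalings the family had 1 higher and 0 lower instead. Neither of the 2 Arl partners was called.

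Sorting nexins, which bind endosomal lipids, had 4 of 14 genes higher, 1 lower and 9 not called (all genes: 17.9% higher and 24.7% lower). The nexin counts were 7 and 0 with loess, 6 and 0 with quantile scaling, and 5 and 1 with centring. The higher ones were Snx20 (0.74), a leukocyte nexin that binds the adhesion ligand PSGL-1, Snx6 (0.61), which works with retromer, Snx16 (0.40) and Snx13 (0.40). Snx20 read 0.76 with and 0.33 without SCF in D816V cells, against 0.13 and -0.51 in Del417-419insY cells. For Snx16 the D816V value with SCF, 0.32, lay below the Del417-419insY value without SCF, 0.41, so its call rests on comparing like conditions. The 2 probe sets of Snx6 gave 0.21 and 1.01, and Snx30 was lower by -0.49.

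ESCRT proteins bud vesicles into multivesicular endosomes, and the ATPase that takes their filaments apart exists as the paralogs Vps4a and Vps4b. Vps4a read 0.64 and 0.26 in D816V cells with and without SCF, against 0.12 and -0.16 in Del417-419insY cells. Vps4b read -0.42 and -0.34 in D816V cells, against 0.22 and 0.33 in Del417-419insY cells. The paralogs were therefore called in opposite directions, by 0.47 (limma adjusted p = 0.0296) and -0.65 (limma adjusted p = 0.0116). Vps36, of ESCRT-II, was lower by -0.74, and Vps28, Vps37a and Vps37c were not called. Among the 6 retromer and GARP genes Vps51 was lower by -0.41, and among the 4 other Vps genes Vps9d1 was lower by -0.46. The calls in these families stand beside 17.9% of all genes called higher and 24.7% lower.

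Members just inside and outside the threshold differed little in size. On the higher side Snx16 had an adjusted p of 0.0477 from limma, and Vps53 (0.47) and Stx7 (0.37) had 0.0529 and 0.0536. On the lower side Arf3 had 0.0420 and Rab22a (-0.39) had 0.0528. Of the 112 members, 66 differed by less than 0.5 in both conditions, and 21 had differences of opposite sign in the conditions, none of them called. The fit counts a change of the difference between conditions toward error, so it disfavours calls of such members.

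Where a gene was read by several probe sets, these gave the same direction for the called members. The 112 members had 170 probe sets: 72 members had 1 and 40 had 2 to 4. All probe sets had the same sign in 34 of the 40, and in each of the 17 called members with several. The widest gaps among called members were in Rab3il1 (-2.79 and -1.59), Snx6 (0.21 and 1.01) and Stx3 (1.02 to 1.78).

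**Figure D4:**
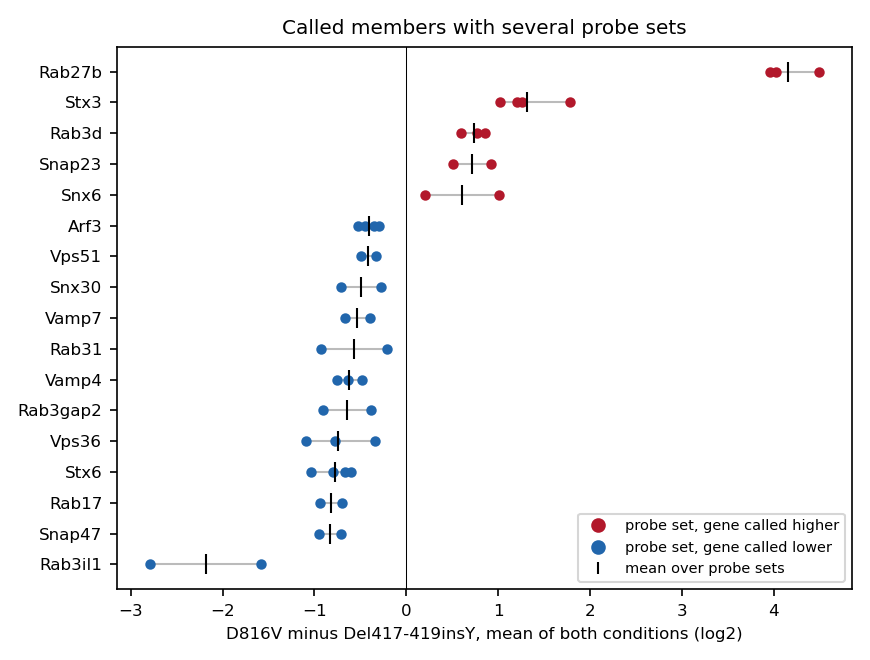
Mean difference, D816V minus Del417-419insY over both conditions (x axis, log2), for each probe set (dot) of the 17 called members that had several, with a tick at the mean used for the gene. No dot crosses 0, which calls made on the mean of the dots favour, and the 3 probe sets of Rab27b lie between 3.96 and 4.49.

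Genes outside the name rule that work with the members were examined from 2 lists. Their counts stand beside 17.9% of all genes called higher and 24.7% called lower. Of 26 measured granule secretion partners out of 59 listed, 5 were higher in D816V cells, 3 lower and 18 not called (8 and 3 with loess, 7 and 3 with quantile scaling, 9 and 4 with centring). The higher ones were Myo5a (1.20), the motor that Rab27a recruits through an adaptor, Nsf (1.01), the ATPase that separates spent SNAREs, Nbeal2 (0.66), needed for platelet alpha granules, and Dtnbp1 (0.55) and Bloc1s4 (0.49) of the BLOC-1 complex. Scamp1 (-1.29), a secretory carrier membrane protein, and Ap3b1 (-0.77) and Ap3s1 (-0.63), subunits of the AP-3 adaptor, were lower. Of 57 measured Rab and Arf regulators out of 96, 8 were higher and 17 lower, and the counts were 17 and 13 with loess, 14 and 15 with quantile scaling and 17 and 14 with centring. Over all genes, as given above, higher calls outnumbered lower ones under each of these scalings. Among the regulators they did so after loess and centring but not with quantile scaling. Among them Rabgap1l was 8.05-fold higher (3.01) and Asap2 was lower by -1.93.

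Markers of cell types that own secretory granules moved with the mutants. Of 12 measured mast cell markers out of 18 listed, 10 were higher in D816V cells and 0 lower, and their summed value was 6.62 with and 16.9 without SCF in D816V cells, against -16.2 and -11.3 in Del417-419insY cells. The high affinity IgE receptor chain Fcer1a was higher by 6.06, Tph1, which makes serotonin, by 5.37 and the chymase Cma1 by 4.07. Of 3 measured cytotoxic lymphocyte markers out of 9, 2 were higher (Gzma by 8.01 and Gzmc by 3.69), with 1 higher and 1 lower after loess, and sums of 14.2 and 14.0 in D816V cells, against 1.63 and 3.01 in Del417-419insY cells. The median difference of these 3 was 4.02 with and 3.35 without SCF, but 0.46 and 0.23 with loess and 1.88 and 1.18 with quantile scaling. Of 5 measured megakaryocyte and platelet markers out of 13, 1 was higher (Itgb3, 2.26) and 4 were lower, with sums of -6.36 and -4.59 in D816V cells, against 1.69 and 1.08 in Del417-419insY cells. Of 6 measured progenitor markers out of 10, 1 was higher and 5 were lower, Kit among them (-1.42), with sums of -8.58 and -6.18 in D816V cells, against -1.09 and -2.66 in Del417-419insY cells. Kit was counted in the progenitor list only, although KIT signalling also sustains mast cells. All cells also carried a KIT vector and were sorted for KIT. As values are relative, no marker can be said to be absent, and the part of these cell type differences in the results for the members was not tested.

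No member was called for SCF by the fit (0 of 112), and 0% of all genes were. At an unadjusted p under 0.05 from limma there were 16 members and 1186 genes, and the lowest adjusted p of a member was 0.162. In Del417-419insY cells no member differed 2-fold with SCF, where 0.328% of all genes were at least 2-fold higher and 0.547% at least 2-fold lower. In D816V cells no member was 2-fold higher, where 0.328% of genes were, and 1 member was 2-fold lower, Arl14ep, where 1.31% of genes were. The median SCF difference was -0.07 in D816V and 0.04 in Del417-419insY cells, beside -0.05 and 0.03 over all genes. The median absolute SCF difference of the members was 0.243 in D816V and 0.141 in Del417-419insY cells, beside 0.206 and 0.173 over all genes.

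The difference had the same sign in both lines for 77 members, 39 upward and 38 downward, and opposite signs for 35. Ranked by the smaller of its differences in the 2 lines, the members with the largest shared upward difference were Rab4b, of recycling endosomes, with 0.62 in D816V and 0.46 in Del417-419insY cells, Snx20 with 0.43 and 0.63, Vps28, of ESCRT-I, with 0.42 and 0.44, and the Rab11 effector Rab11fip5 with 0.34 and 0.47. For Rab4b the values were 0.41 with and -0.21 without SCF in D816V cells, and 0.05 with and -0.40 without SCF in Del417-419insY cells. Each of these SCF differences is under 2-fold and was not called. By the same ranking the largest shared downward differences were in Rab12 (-0.59 in D816V and -0.45 in Del417-419insY cells), Snx16 (-0.41 and -0.59), Rab26os (-0.39 and -0.73) and the Golgi Rab Rab6a (-0.29 and -0.31), and none of these was called either.

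The larger downward differences were on the D816V array with SCF, the array with the lowest median and widest spread. Besides Arl14ep (-1.03 in D816V and 0.04 in Del417-419insY cells), Rab18, of lipid droplets and the endoplasmic reticulum, had -0.87 and -0.14, and Vps35, the core of retromer, had -0.87 and 0.13. Vps35 read -1.23 with and -0.37 without SCF in D816V cells, and -0.18 with and -0.31 without SCF in Del417-419insY cells. Only the treated D816V value of Vps35 stood apart, and the part of that array's median in it was not tested. Rab27b, the member that differed most between the mutants, had SCF differences of -0.31 in D816V and 0.02 in Del417-419insY cells.

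**Figure D5:**
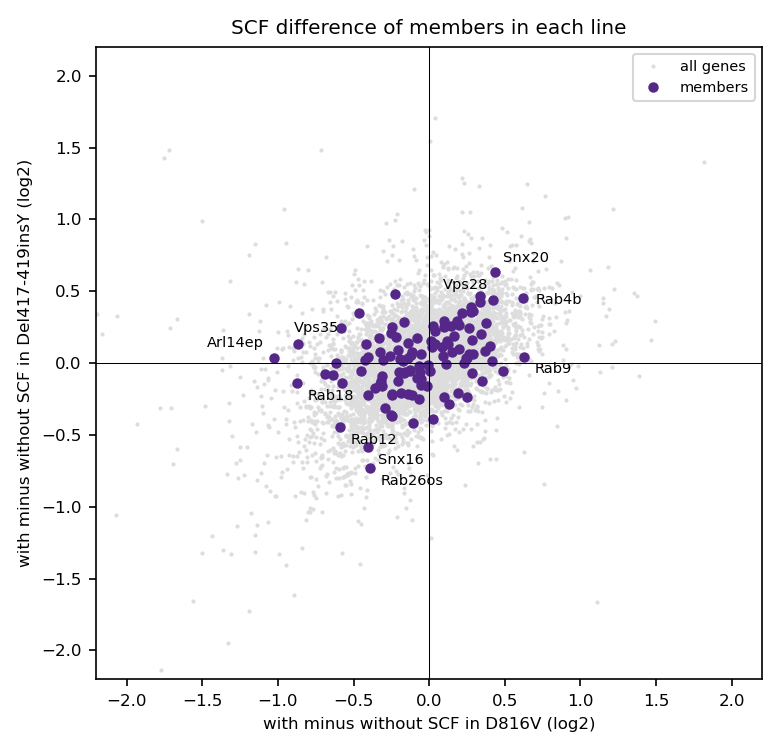
SCF difference, with minus without, in D816V cells (x axis, log2) against the same difference in Del417-419insY cells (y axis, log2), with members in purple and all genes in grey, from 1 array a group. Members lie between -1.03 and 0.62 in D816V and between -0.73 and 0.63 in Del417-419insY cells, and 1 gene lies outside the axes.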

How the data were processed

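RNA of 4 cultures was hybridised to Affymetrix M430 2.0 arrays, 1 per culture. The submitters' processing notes name RMA for the deposited log2 values. For the RMA version, the log base (assumed from RMA), the baseline of each probe set and the filter that left 10861 of 45101 probe sets, the sources used here give nothing. Of these, 9633 had 1 gene symbol, 264 several (3 of them with a symbol that meets the rule, left out) and 964 none. Probe sets of a gene were averaged, giving 6404 genes. Through the gene ID, 87 members matched a RefSeq GRCm38.p6 promoter window and 25 did not. R 4.3.3 and limma 3.58.1 fitted mutant plus SCF (lmFit, eBayes, two-sided, Benjamini-Hochberg over 6404 genes), with 1 residual degree of freedom, prior degrees of freedom of 4.10 and a prior SD of 0.127. It was tested on simulated data. With 1 array a group, p-values cover no replicate cultures, and precision is limited by the 4 arrays.

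The members, lists and named genes were chosen with earlier results of these data known. Named were the 10 largest called differences each way, members at least 2-fold in both conditions, the 4 largest shared SCF differences each way and the granule release list; other members are named to complete a family's count, to show paralogs or because their values stood out. Alternatives were 3 scalings, plain probe sets only, no SCF term, and a trended or robust prior. Brightness and detection were not used here. The promoter windows came from RefSeq (GRCm38.p6), of which 250 bases before the start were searched.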

Additional observations from a re-analysis of the deposited data

Results flagged for a closer look

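The SCF difference of Arl14ep, which encodes a partner of the small GTPase Arl14, was -1.03 in D816V cells and 0.04 in Del417-419insY cells, so the SCF responses differed by -1.06. The gene read -0.83 with and 0.19 without SCF in D816V cells, and 0.20 with and 0.16 without SCF in Del417-419insY cells. It was picked out because the SCF responses of the lines differed by over 2-fold. In Del417-419insY cells its 2 probe sets gave SCF differences of 0.143 and -0.071, so no direction is shown there. With 1 array a group, the difference between the lines was not tested, and the change in D816V cells was under 2-fold after each of the 3 scalings.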

How the results depend on the processing

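With 1 array a group, no array could be left out of the comparison as a replicate. No paired analysis was possible because each group had 1 array and the labels carry no replicate numbers. The number of members higher in D816V cells, 17 as reported, was 30 after cyclic loess, 26 after quantile normalization, 28 after median centring and 10 without the SCF term, and the number lower, 25 as reported, was 16 without the SCF term. Over all 6404 genes the counts without the SCF term were 690 higher and 913 lower, in place of 1147 and 1579. After centring, 2 members were called for SCF (Snx20, limma adjusted p = 0.0426, and Rab4b, limma adjusted p = 0.0442), against 0 as reported, where 256 of 6404 genes were (42 after loess). The count of members at least 2-fold lower with SCF in D816V cells was 0 after loess, quantile normalization and centring, against 1. The median member difference between the mutants with SCF was 0.019 after centring, against -0.133. The causes were not tested. Of 37 named members, 5 lost the call without the SCF term. Rab4b gained it under the 3 scalings, and Rab37 and Rab11fip5 after centring. Vamp7 lost it after loess and quantile normalization. With plain probe sets only, Snx16 lost the call and 26 named members kept their result. The other named members, Rab12, Rab17 and Vps4b among them, had no plain probe set and could not be compared. A trended or robust prior changed the call of none of the 37. Depth is unknown, since no signal over background was examined.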

Other observations

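Some members that separated the mutants also had SCF differences of opposite sign in the lines. Rab44 had -0.58 in D816V and 0.25 in Del417-419insY cells, Stx3 had -0.23 and 0.48, and Exoc3l2 had -0.46 and 0.35. The difference between D816V and Del417-419insY cells was therefore smaller with SCF for Rab44 (1.09 with and 1.92 without) and Stx3 (0.96 and 1.67), and larger in size with SCF for Exoc3l2 (-2.25 and -1.44). These genes were chosen after their values were seen, and whether the responses differ was not tested. Across the 112 members, the differences between the mutants with and without SCF had a Pearson r of 0.912, or 0.877 without Rab27b, beside 0.922 over all genes; the points share the 4 arrays and their scaling.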
